A study of Mus musculus with 9 samples.

Results

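Chromatin remodelers and histone methylation enzymes were followed in RIP-seq libraries of N2A cells, a mouse neuroblastoma line. The members were chosen by gene symbol: the CHD remodelers, the SMARC ATPases and subunits, the ARID proteins, and the enzymes named Kmt2, Kmt5, Setd, Nsd or Kdm that add or remove methyl groups on histones, with 3 symbols left out by the rule. This gave 70 of the 54325 gene symbols in the count table: 9 CHD, 15 SMARC, 10 ARID, 7 methyltransferases of histone H3 lysine 4 (H3K4), 12 other methyltransferases and 17 KDM symbols. Their 611 transcripts, of 140658 in the table, were summed per gene. All cells, those of the control libraries included, had been kept for 2 h in 200 nM okadaic acid, which blocks protein phosphatases. RNA pulled down with an antibody to p-UPF1 (p-UPF1 IP), RNA recovered with rabbit IgG as a control (rIgG IP) and RNA that was not immunoprecipitated (Input) were cleaved with RNase I and sequenced as short fragments, in 3 libraries each. No library came from cells without okadaic acid, and 1 cell line was used. Nothing in the labels says whether the replicates were separate cultures, so p-values measure only the spread between these libraries.

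UPF1 is an RNA helicase that is required for nonsense-mediated mRNA decay (NMD), the pathway that degrades mRNAs on which translation ends at a stop codon the cell reads as premature, often one with an exon junction downstream. Phosphorylated UPF1 (p-UPF1) accumulates on such mRNAs, and the mRNA fragments it protects can be sequenced. CHD proteins and the SWI/SNF complexes, whose subunits carry SMARC and ARID names, use ATP to move or evict nucleosomes. KMT2 and SETD1 proteins methylate H3K4 at promoters and enhancers, SETD2 and the NSD proteins methylate H3K36, KMT5 proteins methylate H4K20, and KDM proteins remove methyl groups again. In developing neurons, the SWI/SNF subunits exchange as progenitors leave the cell cycle, and many of these genes are known from neurodevelopmental disorders.

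The stop codon is where UPF1 is thought to meet the ribosome, so the bases around it are shown for the 4 members with the highest and the 4 with the lowest log2 fold change in the p-UPF1 IP over Input, among called members with a protein-coding model and a mean Input count of at least 20, and for both Chd2 transcripts described further on. Each line gives the transcript, the place of the stop codon (build GRCm38, GENCODE M21), and 12 bases on either side, 5′ to 3′ on the sense strand, with the stop codon in capitals. The protein-coding model of a gene is the complete one, with both start and stop codon annotated, that had the most Input counts. Bases of the annotated reference are shown, not of the reads.
Kmt2b, ENSMUST00000108154.8, chr7:30569161-30569163, minus strand: cgctttcttaacTGAggccatggctgc
Kdm4b, ENSMUST00000025036.10, chr17:56401726-56401728, plus strand: ggagcacccttcTAGatcctgcccact
Kmt5c, ENSMUST00000108582.9, chr7:4746889-4746891, plus strand: agtggtgagccaTGAtgggctgcttac
Chd5, ENSMUST00000005175.4, chr4:152386963-152386965, plus strand: ctacagccctttTAGgagttggtgcgg
Smarcb1, ENSMUST00000000925.9, chr10:75897049-75897051, minus strand: gccccagcctggTGAtgaagacatcca
Smarcal1, ENSMUST00000047615.14, chr1:72633052-72633054, plus strand: tcctctccctttTGAcagggtcagaaa
Kdm1a, ENSMUST00000105847.7, chr4:136550848-136550850, minus strand: tccccaagtatgTGAgacagatggttc
Smarca5, ENSMUST00000043359.8, chr8:80701063-80701065, minus strand: aagctgaaactaTGAatgcatttttgt
Chd2, ENSMUST00000169922.8, chr7:73429667-73429669, minus strand: gttcggaaaacaTAAaggaccactcct
Chd2, ENSMUST00000199809.4, annotated as an NMD transcript, chr7:73454747-73454749, minus strand: gctgggatgctcTAGcagatgaagcca
By this choice the first 4 genes had the highest log2 fold changes and the next 4 the lowest. The pseudogene Smarce1-ps1, which has no coding model, was lower still and is not shown. The fold changes are of counts summed per gene, not of the models shown, which were chosen by Input counts. In the p-UPF1 IP libraries, the models of Kmt2b and Chd5 had 0 counts throughout and that of Kmt5c had 0, 2 and 4. The Kdm4b model led its gene there, with a mean share of 88.1%. How counts were split among a gene's transcripts is uncertain, as described further on. In the first 4, the stop codon was TGA in Kmt2b and Kmt5c and TAG in Kdm4b and Chd5, and in the next 4 it was TGA throughout. All 9 protein-coding models had no exon junction after the stop codon, whereas the stop codon of the NMD-annotated Chd2 transcript lay 1321 nt before the last junction. Among the 64 tested members with a model, only Smarcc1 had such a junction, 36 nt after the stop codon. Its absence therefore does not set the models shown apart from other members.

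Total counts were 25184464 to 29857955 in the Input, 5312526 to 6246110 in the p-UPF1 IP and 79010 to 474491 in the rIgG IP libraries. In each library, its 10 most-counted transcripts held 76.8% to 82.3% of these totals, which leaves a far smaller part for all other transcripts. The members took 0.0956% to 0.103% of the counts in the Input, 0.0950% to 0.113% in the rIgG IP and 0.175% to 0.193% in the p-UPF1 IP libraries. The shallowest rIgG IP library held 89 member counts in all. The smallest level the depth can show, 3 counts, was 0.100 to 0.119 CPM of the library total in the Input, 0.480 to 0.565 CPM in the p-UPF1 IP and from 6.32 to 38 CPM in the rIgG IP, for counting error only, since PCR copies are not independent molecules. In bulk libraries such as these, fewer cells with an RNA and less RNA per cell cannot be told apart. Of 10 markers of sympathetic neuroblastoma, 8 had over 10 counts in every Input library, and all 4 pan-neuronal markers passed that level. Markers of microglia and blood summed to 1 to 3 counts and those of astrocytes to 0 to 2 counts per Input library, with Aqp4 at 0. Markers of oligodendrocytes summed to 37 to 53, of endothelium to 36 to 41 and of fibroblasts to 28 to 39 counts, with Col3a1 at 0.

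Most members were recovered in the p-UPF1 IP above their Input level. Of the 66 members with at least 10 counts over the 6 libraries, 35 were higher in the p-UPF1 IP than in Input at an edgeR adjusted p under 0.05 (53.0%, against 26.3% of all 16919 genes tested) and 14 were lower (21.2%, against 35.7%). With the study's threshold of a log2 fold change above 1 added, 19 members were enriched (28.8%, against 17.2% of all genes), and below -1, 6 were depleted (9.09%, against 26.5%). The median log2 fold change was 0.30 over the members and -0.42 over all genes, a gap of 0.72. Scaling by library totals alone in place of TMM moved the median of all genes to -0.01 and gave 46 members higher and 8 lower, with the gap again at 0.72. Without the p-UPF1 antibody, in the rIgG IP over Input, the members' median also lay above that of all genes (-0.32 against -0.84). In the p-UPF1 IP over rIgG IP the medians were near each other (0.94 against 0.91). The 3 p-UPF1 IP values lay wholly above or wholly below the 3 Input values for 50 of the 66 members, against 70.1% of all genes. The 4 members with fewer counts were Arid3c, Kdm4d, Kdm4dl and Smarca5-ps. Levels below are CPM, counts scaled by library total and TMM factor, given in the order of libraries 1, 2 and 3, and fold changes are edgeR log2 fold changes of the p-UPF1 IP over Input with Benjamini-Hochberg adjusted p-values over all genes.

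**Figure D1:**
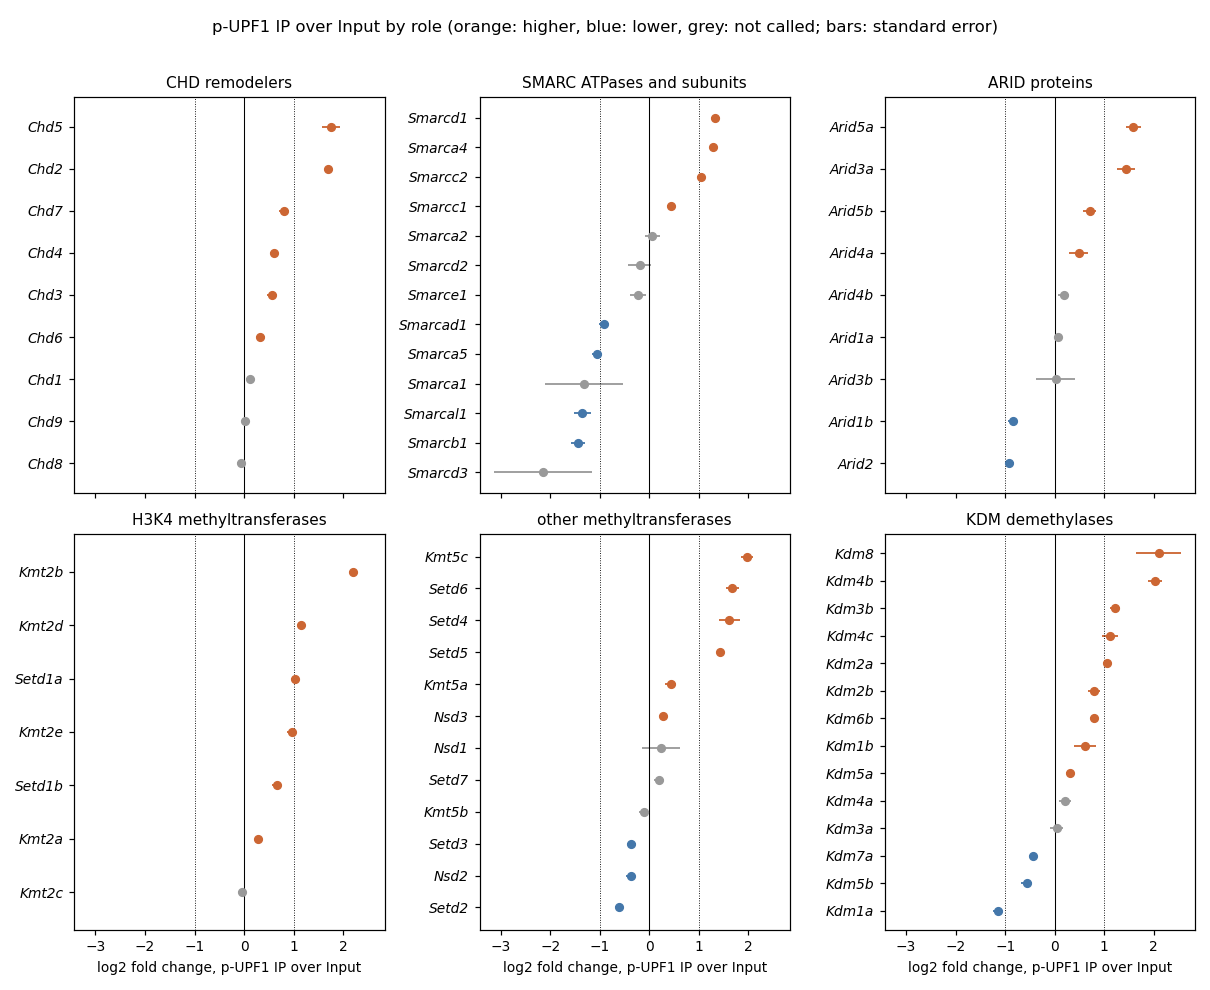
Each point is the log2 fold change of a member in the p-UPF1 IP over Input (horizontal axis, with its SE; vertical axis, genes), by role, for the 64 tested members with counts in both groups. Dotted lines mark 1 and -1. CHD remodelers and H3K4 methyltransferases hold no called member below 0, and SMARC genes spread to both sides.

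The H3K4 methyltransferases had the highest median of the 6 roles, 0.97, with 6 of 7 higher, none lower and 3 enriched. Kmt2b, a methyltransferase of the MLL family, measured 11.2, 10.3 and 10.6 CPM in Input against 46.6, 47.7 and 52.0 CPM in p-UPF1 IP. Every p-UPF1 IP library was above 4 times the Input mean, and the log2 fold change of 2.19 ± 0.08 (SE, adjusted p = 7.52e-09) was the largest among the members. Kmt2d, the enzyme that marks enhancers with H3K4 monomethylation together with Kmt2c, measured 59.9, 52.6 and 52.2 CPM in Input against 124, 118 and 124 CPM in p-UPF1 IP, a difference of 1.16 ± 0.08 (SE, adjusted p = 4.22e-07). Its paralog Kmt2c measured 44.1, 42.8 and 43.3 CPM in Input against 43.7, 44.9 and 38.2 CPM in p-UPF1 IP, with overlapping groups (-0.04 ± 0.08 SE, adjusted p = 0.682), and its sign turned under library totals. Setd1a, the catalytic subunit of a complex that trimethylates H3K4 at promoters, rose from 14.9, 14.6 and 15.4 to 31.0, 31.8 and 29.0 CPM, and all p-UPF1 IP values were above all Input values (1.03 ± 0.08 SE, adjusted p = 1.05e-06). Its paralog Setd1b rose by less (0.66 ± 0.09 SE, adjusted p = 8.55e-05), as did Kmt2a (0.29 ± 0.07 SE, adjusted p = 0.00649), the founding member of the MLL family. Kmt2e, a relative whose SET domain is thought to lack enzyme activity, lay just under the threshold for enrichment at 0.97 ± 0.09 (SE, adjusted p = 6.04e-06).

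Among the CHD remodelers, 6 of 9 rose and none fell, with a median of 0.56. Chd2, which remodels nucleosomes at transcribed genes, measured 17.8, 16.1 and 16.6 CPM in Input against 54.4, 55.3 and 54.7 CPM in p-UPF1 IP. The 3 p-UPF1 IP values lay within 1 CPM of each other and all above Input, with a log2 fold change of 1.70 ± 0.07 (SE, adjusted p = 1.92e-08). Chd5, a neuronal member of the nucleosome remodeling and deacetylase (NuRD) complex, had lower levels, 4.96, 3.48 and 3.25 CPM in Input against 15.2, 13.2 and 11.1 CPM in p-UPF1 IP, and a similar change of 1.75 ± 0.18 (SE, adjusted p = 1.25e-05). The other NuRD ATPases rose by less. Chd4, the core ATPase of NuRD in most cells, measured 75.4, 73.5 and 70.4 CPM in Input against 112, 109.9 and 109 CPM in p-UPF1 IP (0.59 ± 0.06 SE, adjusted p = 1.63e-05), and Chd3 rose by 0.56 ± 0.09 (SE, adjusted p = 0.000443). Chd7, known from CHARGE syndrome, rose by 0.81 ± 0.10 (SE, adjusted p = 4.77e-05) and Chd6 by 0.33 ± 0.09 (SE, adjusted p = 0.00856). For the other three the groups overlapped. Chd1, which binds trimethylated H3K4, measured 30.1, 31.6 and 32.4 CPM in Input against 37.8, 32.2 and 32.3 CPM in p-UPF1 IP (0.12 ± 0.08 SE, adjusted p = 0.245). Chd9 was at 0.02 ± 0.08 (SE, adjusted p = 0.835) and Chd8, an autism gene, at -0.06 ± 0.08 (SE, adjusted p = 0.559). The sign of Chd8 turned under library totals, and that of Chd9 without the filter on low counts.

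Of the 14 SMARC genes tested, 4 were higher (28.6%, against 26.3% of all genes) and 5 lower (35.7%, against 35.7%). Their median was -0.58, against -0.42 for all genes. The SMARC genes thus divided in shares near those of all genes. Smarca4 (BRG1), one of the alternative ATPases of SWI/SNF, measured 22.6, 23.7 and 23.3 CPM in Input against 57.9, 56.4 and 55.8 CPM in p-UPF1 IP, so every p-UPF1 IP value was above 2 times the Input mean (1.29 ± 0.07 SE, adjusted p = 8.18e-08). Smarca2 (BRM), the other ATPase, measured 10.4, 8.75 and 9.36 CPM in Input against 12.4, 9.47 and 8.17 CPM in p-UPF1 IP with overlapping groups (0.06 ± 0.14 SE, adjusted p = 0.725). Of the subunits that build the core around the ATPase, Smarcd1 measured 13.8, 13.6 and 12.3 CPM in Input against 34.4, 30.2 and 34.9 CPM in p-UPF1 IP (1.33 ± 0.09 SE, adjusted p = 5.19e-07), Smarcc2 rose by 1.04 ± 0.08 (SE, adjusted p = 1.68e-06) and Smarcc1 by 0.43 ± 0.08 (SE, adjusted p = 0.000717). Smarcb1 (SNF5), a core subunit and tumor suppressor, went the other way, from 18.6, 16.1 and 16.8 CPM in the Input to 4.57, 6.72 and 7.33 CPM in the p-UPF1 IP libraries (-1.45 ± 0.14 SE, adjusted p = 8.14e-06). Subunits of 1 complex were thus found among both the enriched and the depleted genes. Smarce1 measured 9.39, 9.37 and 11.7 CPM in Input against 10.5, 6.59 and 9.16 CPM in p-UPF1 IP and did not pass the test (-0.23 ± 0.16 SE, adjusted p = 0.243). Smarce1-ps1, a processed pseudogene of Smarce1, had 134, 99 and 114 Input counts and none in the p-UPF1 IP, at least 11-fold lower against a floor of 3 counts per library. It shares 63.3% of its 35-nt windows with Smarce1, so the split of reads between them is uncertain. Summed, the pair measured 15.2, 13.8 and 16.3 CPM in the Input and 10.5, 6.59 and 9.16 CPM in the p-UPF1 IP libraries, without overlap.

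The other SMARC ATPases were depleted or lower where they had counts to test. Smarca5 (SNF2H), the motor of the ISWI complexes, fell from 41.9, 42.3 and 47.4 to 20.0, 24.0 and 19.2 CPM (-1.06 ± 0.10 SE, adjusted p = 6.58e-06). Smarcal1, which rewinds DNA at stalled replication forks, fell from 7.65, 7.27 and 7.31 to 2.20, 3.57 and 2.82 CPM (-1.35 ± 0.17 SE, adjusted p = 4.52e-05). Smarcad1, which acts in DNA end resection and in keeping heterochromatin, fell by 0.92 on the log2 scale (SE 0.10, adjusted p = 2.39e-05). The groups of all 3 were apart. Smarca1 had only 9, 11 and 25 Input counts and 3, 2 and 0 p-UPF1 IP counts, and Smarcd3 had 4, 8 and 21 against 0, 1 and 1, and neither passed the test (adjusted p = 0.171 and 0.0849). Without Input library 1, Smarcd3 was called lower (adjusted p = 0.0402). Smarcd2 measured 3.43, 3.39 and 2.37 CPM in Input against 2.88, 3.02 and 2.11 CPM in p-UPF1 IP and did not pass either (-0.20 ± 0.23 SE, adjusted p = 0.476), with a sign that turned under library totals.

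Among the ARID proteins, 4 of 9 rose and 2 fell. Arid5a, an RNA-binding and DNA-binding protein known for stabilizing inflammatory mRNAs, measured 4.30, 3.75 and 4.10 CPM in Input against 15.1, 10.8 and 11 CPM in p-UPF1 IP (1.59 ± 0.15 SE, adjusted p = 5.83e-06). Arid3a, a transcription factor, rose from 3.83, 2.59 and 3.34 to 7.29, 9.19 and 10.0 CPM (1.45 ± 0.18 SE, adjusted p = 5.33e-05). In both, the lowest p-UPF1 IP value was above the highest Input value. Arid5b, which recruits the demethylase PHF2, rose by 0.70 ± 0.13 (SE, adjusted p = 0.000797) and Arid4a, an RB1-binding protein, by 0.48 ± 0.19 (SE, adjusted p = 0.0483). The SWI/SNF subunits among the ARID proteins behaved otherwise. Arid1a, defining BAF complexes and the most counted of the class, measured 47.8, 52.1 and 44.4 CPM in Input against 50.0, 50.5 and 50.3 CPM in p-UPF1 IP with overlapping groups (0.06 ± 0.08 SE, adjusted p = 0.484). Arid1b, its alternative, fell from 14.3, 13.9 and 14.7 to 7.46, 7.55 and 8.73 CPM (-0.85 ± 0.10 SE, adjusted p = 2.76e-05), and Arid2, which defines PBAF complexes, fell from 37.8, 37.7 and 33.6 to 19.3, 20.4 and 18 CPM (-0.91 ± 0.09 SE, adjusted p = 7.11e-06). Arid4b (0.18 ± 0.11 SE, adjusted p = 0.179) and Arid3b (0.02 ± 0.40 SE, adjusted p = 0.970) did not pass the test, and the signs of Arid1a and Arid3b turned without the filter on low counts.

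Of the other methyltransferases, 6 of 12 rose and 3 fell. Kmt5c, which trimethylates H4K20 in heterochromatin, measured 3.13, 3.26 and 2.85 CPM in Input against 12.7, 11.3 and 12.1 CPM in p-UPF1 IP (1.96 ± 0.12 SE, adjusted p = 2.59e-07). Setd5, a gene of intellectual disability whose histone methyltransferase activity is disputed, was the most counted of the class in Input, with 38.5, 40.7 and 39.2 CPM in Input against 102, 117 and 101 CPM in p-UPF1 IP (1.43 ± 0.08 SE, adjusted p = 9.73e-08). Setd6, which methylates the NF-kappa-B subunit RELA, rose from 3.52, 3.70 and 3.17 to 12.4, 10.0 and 11 CPM (1.68 ± 0.13 SE, adjusted p = 1.54e-06), and Setd4 from 1.43, 1.43 and 1.77 to 3.90, 5.08 and 5.21 CPM (1.62 ± 0.21 SE, adjusted p = 6.10e-05). All 4 had groups that lay apart. Kmt5a, the H4K20 monomethyltransferase, rose by 0.43 ± 0.10 (SE, adjusted p = 0.00465) and Nsd3 by 0.28 ± 0.09 (SE, adjusted p = 0.0161). Setd2, which trimethylates H3K36, fell from 34.1, 34.5 and 35.6 to 22.4, 24.3 and 21.1 CPM (-0.62 ± 0.08 SE, adjusted p = 6.02e-05), Nsd2, an H3K36 dimethyltransferase, fell from 35.8, 35.6 and 40.6 to 29.0, 30.5 and 26.6 CPM (-0.38 ± 0.09 SE, adjusted p = 0.00341), and Setd3, an actin histidine methyltransferase, fell from 15.0, 13.7 and 14.3 to 11.4, 11.9 and 10.1 CPM (-0.36 ± 0.09 SE, adjusted p = 0.00706). The sign of Nsd2 turned under library totals. The groups of Setd7 (0.19 ± 0.10 SE, adjusted p = 0.13), Nsd1 (0.24 ± 0.39 SE, adjusted p = 0.609) and Kmt5b (-0.11 ± 0.11 SE, adjusted p = 0.381) overlapped, and the sign of Kmt5b also turned under library totals.

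The KDM demethylases held 9 higher and 4 lower members of 15, with a median of 0.61. Kdm4b, which removes methyl groups from H3K9, measured 3.30, 3.70 and 3.29 CPM in Input against 11, 14.5 and 16.2 CPM in p-UPF1 IP (2.03 ± 0.15 SE, adjusted p = 1.02e-06). Its paralog Kdm4c rose from 2.65, 2.81 and 2.61 to 5.08, 6.86 and 5.49 CPM (1.12 ± 0.17 SE, adjusted p = 0.000182). Kdm4a, in contrast, measured 11.5, 12.1 and 12.3 CPM in Input against 14.9, 11.3 and 15.4 CPM in p-UPF1 IP with overlapping groups (0.20 ± 0.12 SE, adjusted p = 0.148), but was called higher without p-UPF1 IP library 2 (log2 fold change 0.37, adjusted p = 0.00937) and under library totals. Kdm3b, an H3K9 demethylase, rose from 12.0, 12.1 and 11.3 to 23.0, 30.2 and 28.9 CPM (1.22 ± 0.10 SE, adjusted p = 3.11e-06) and Kdm2a, an H3K36 demethylase that binds CpG islands, from 18.9, 17.5 and 18.2 to 35.8, 37.9 and 39.4 CPM (1.05 ± 0.08 SE, adjusted p = 8.90e-07). Kdm8 had 6, 8 and 5 Input counts against 8, 9 and 7 p-UPF1 IP counts, the fewest of any enriched member (2.10 ± 0.45 SE, adjusted p = 0.00244). Smaller rises were measured for Kdm2b (0.80 ± 0.12 SE, adjusted p = 0.000217), the H3K27 demethylase Kdm6b (0.79 ± 0.08 SE, adjusted p = 6.59e-06), Kdm1b (0.61 ± 0.22 SE, adjusted p = 0.0310) and Kdm5a (0.31 ± 0.08 SE, adjusted p = 0.00496). The call of Kdm1b was lost without Input library 1 or 2 or p-UPF1 IP library 1 or 3 (adjusted p of 0.0681, 0.0776, 0.0657 and 0.0680), and without the filter on low counts, as were those of Kdm5a, Chd6 and Nsd3. Kdm1a (LSD1), which removes methyl groups from H3K4 and acts with CoREST in neuronal gene silencing, fell from 28.0, 30.3 and 29.0 to 14.1, 13.4 and 11.8 CPM, all p-UPF1 IP values being under 15 CPM (-1.15 ± 0.09 SE, adjusted p = 1.53e-06). Kdm5b, an H3K4 demethylase, fell by 0.57 (SE 0.11, adjusted p = 0.00149) and Kdm7a by 0.44 on the log2 scale (SE 0.09, adjusted p = 0.00113). Under library totals these 2 and Setd2 kept their sign but lost the call (adjusted p of 0.332, 0.791 and 0.0763), and Arid1a, Chd1, Chd9, Kdm3a, Kdm4a and Smarca2 were called higher, as were Kmt2c, Chd8 and Kmt5b after a change of sign (adjusted p of 0.00606, 0.00996 and 0.0364). Kdm6bos, a transcript from the strand opposite to Kdm6b, was called depleted on 4, 7 and 3 Input counts against 0 in every p-UPF1 IP library (adjusted p = 0.0464), but its Input level lay under the level of 3 counts in the p-UPF1 IP libraries, so no fold is given. Whether reads were assigned by strand is not stated in the sources used here, and the call was lost under library totals, with DESeq2, without the filter on low counts, and without Input library 1 or any 1 of the p-UPF1 IP libraries. Kdm3a did not pass the test (0.04 ± 0.13 SE, adjusted p = 0.811), and its sign turned without the filter on low counts.

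**Figure D2:**
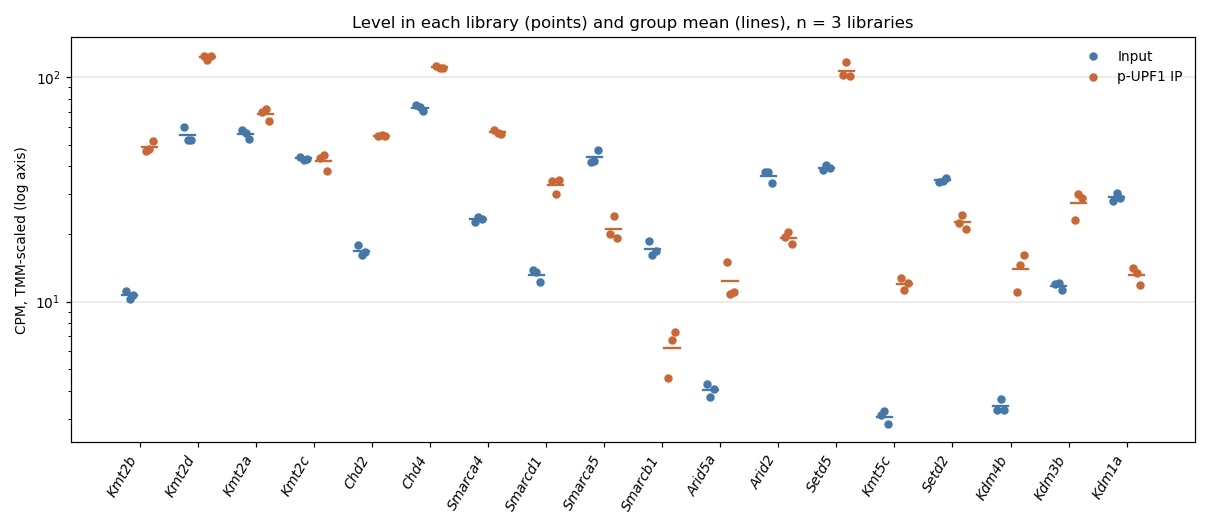
Levels of 18 members in each Input (blue) and p-UPF1 IP (orange) library, in TMM-scaled CPM on a log axis, with group means as lines. Kmt2b, Chd2, Smarca4 and Kdm4b lay far above Input in all 3 p-UPF1 IP libraries, Smarcb1, Smarca5, Arid2 and Kdm1a below it, and Kmt2c at the same level.

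Per length of the most-counted coding model, the Input level was highest for Chd4, Smarcb1 and Kdm1a, at 11.2, 10.3 and 9.61 CPM per kb. The first of these rose in the p-UPF1 IP and the other two were depleted. Across the 64 members with a model, the Spearman correlation of the Input level in CPM with the log2 fold change was -0.25, and across 12684 genes it was -0.12. Both are correlations across genes of the same libraries, and genes are not independent replicates.

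The rIgG IP, in which no p-UPF1 antibody was used, is the background of the immunoprecipitation. It held few counts for any member, and 62 members passed the count filter in the p-UPF1 IP over rIgG IP. Of these, 24 were higher (38.7%, against 18.5% of 12033 genes tested), 21 of them with a log2 fold change above 1 (33.9%, against 18%), and 1 was lower (1.61%, against 5.56%), by more than 1 on the log2 scale (against 5.31%). The median log2 fold change, 0.94, was near that of all genes, 0.91. Members with a coding model were better counted than all such genes, with a median Input level of 13.1 against 4.19 CPM. The part of the count level in the shares called was not tested. This comparison shares its p-UPF1 IP libraries with the comparison over Input. Setd5 had 14, 9 and 1 counts in the rIgG IP against 603, 850 and 717 in the p-UPF1 IP, a log2 fold change of 2.05 ± 0.29 (SE, adjusted p = 7.74e-06). Kmt2d had 24, 14 and 7 against 734, 863 and 883 counts (1.33 ± 0.23 SE, adjusted p = 8.93e-05). These were 2 of the better counted. Chd2, with 5, 4 and 1 against 321, 403 and 388 counts, was at 2.34 ± 0.35 (SE, adjusted p = 2.08e-05). Smarca4 was at 2.01 ± 0.33 (SE, adjusted p = 5.61e-05), Kmt2b at 2.17 ± 0.36 (SE, adjusted p = 6.63e-05), Kmt2e at 2.25 ± 0.42 (SE, adjusted p = 0.000280) and Smarcd1 at 1.77 ± 0.43 (SE, adjusted p = 0.00329). Without rIgG IP library 1, Smarcd1 was at 2.78. All 7 were higher in the p-UPF1 IP under each of the 14 alternative fits, as were Chd5 and Chd6, whose rIgG IP counts were 1, 0 and 0 and 3, 1 and 1. Setd4 had no count in any rIgG IP library and was called on that absence (adjusted p = 0.0328), but its p-UPF1 IP level lay under the level of 3 counts in the rIgG IP libraries, and no fold is given. Smarcal1, the lower member, had 6, 3 and 1 against 13, 26 and 20 counts (-1.88 ± 0.57 SE, adjusted p = 0.0168). Its call was lost without rIgG IP library 1. Kdm4b and Kmt5c, among the top members over Input, did not pass over rIgG IP (1.69 ± 0.63 (SE, adjusted p = 0.0509) and 1.47 ± 0.62 (SE, adjusted p = 0.0880)). Smarcb1 and Kdm1a, depleted over Input, were at -0.78 ± 0.52 (SE, adjusted p = 0.293) and -0.31 ± 0.40 (SE, adjusted p = 0.594). Without rIgG IP library 1, 2 or 3 the number of higher members was 15, 15 and 16, and with RLE factors, DESeq2 or filterByExpr it was 13, 12 and 12. Of the 21 enriched members, 8 remained enriched and 9 remained higher in all 14 alternatives.

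In the rIgG IP over Input, edgeR called none of the 66 members tested (against 0.584% of 16280 genes higher and 0.313% lower). The median log2 fold change was -0.32 over the members and -0.84 over all genes. At an unadjusted edgeR p under 0.05 there were 7 of 66 members, 2 higher and 5 lower, against 2011 of 16280 genes, 420 of them higher. The members' counts were near the shares of all genes. DESeq2 called 1 member, Smarce1, higher at an adjusted p under 0.05. With edgeR, Smarce1 had a log2 fold change of 1.03 ± 0.40 (SE, adjusted p = 0.314). With at most 474491 counts per rIgG IP library, differences of most single members were not detectable at this depth.

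Some paralogs that arose by duplication and encode like proteins differed. Of 26 pairs compared, 12 had log2 fold changes in the p-UPF1 IP over Input more than 1 apart, and in 10 the signs were opposite. The gap was not tested and is given as a description. No share for other pairs of genes is given, so these counts cannot be read as a trait of paralogs. Some of the opposite signs rest on small uncalled values, such as Kmt2c (-0.04), Chd8 (-0.06) and Arid1a (0.06). Excluding pairs with Smarcd3, the widest gap, 2.07, was between the H4K20 methyltransferases Kmt5c (1.96 ± 0.12) and Kmt5b (-0.11 ± 0.11). It was 1.90 between Kmt2b and Kmt2a, 1.82 between Kdm4b and Kdm4a, 1.59 between Chd2 and Chd1, 1.22 between Smarca4 and Smarca2, and 1.19 between Kmt2d and Kmt2c. In 3 pairs both members were called, in opposite directions: Kdm1b rose and Kdm1a fell, Kdm5a rose and Kdm5b fell, and Nsd3 rose and Nsd2 fell. Under library totals the signs were opposite in 4 pairs, and of these 3 pairs only Kdm1a with Kdm1b was still called in opposite directions. Without the filter on low counts none was, and Kdm1a with Kdm1b was not without Input library 1 or 2 or p-UPF1 IP library 1 or 3. Not all pairs parted, and Chd3 and Chd4 differed by 0.03. Only 2 pairs, Chd3 with Chd4 and Kmt2c with Kmt2d, shared any 35-nt stretch of sequence, at most 3 windows. In 16 of the 26 pairs the member with the higher GC content had the higher log2 fold change. Kmt2b and Kmt2a had a GC content of 59.1% and 50.6%, and Kmt5c and Kmt5b 59.99% and 47.8%. The reverse held in Kdm1b and Kdm1a, with 44.4% and 51.7%.

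**Figure D3:**
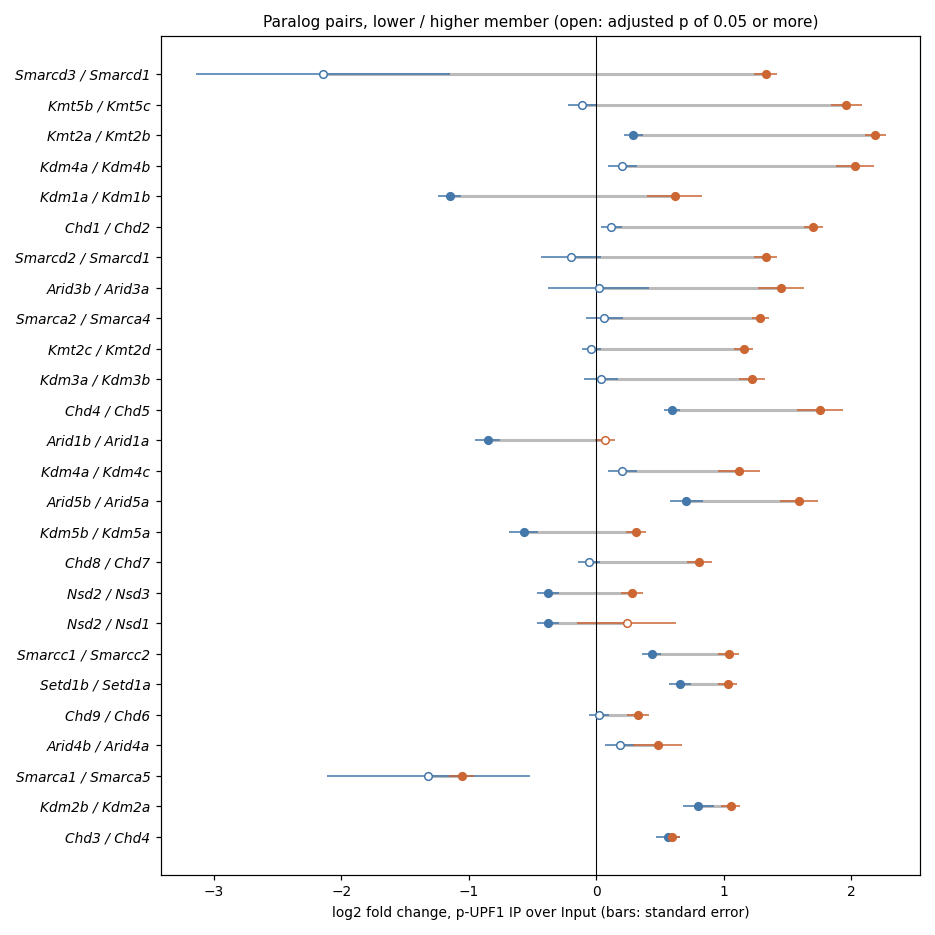
Each row is a paralog pair, with the log2 fold change in the p-UPF1 IP over Input of its lower (blue) and higher (orange) member and its SE (horizontal axis). Filled points passed the test, open ones did not. In the pairs of Kmt5b and Kmt5c, Kdm4a and Kdm4b, and Chd1 and Chd2, 1 member lies near 0 and the other above 1.

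GC content moved with the log2 fold change. Across the 64 members the Spearman correlation was 0.41 and across 12684 genes it was 0.42, both as descriptions. All genes were divided into 3 bins of equal size by GC content. In the lowest bin, up to 47.2%, the median log2 fold change was 0.12 for the 17 members and -0.87 for all genes, and 1 member was enriched (5.88%, against 5.04% of all genes in the bin). In the middle bin it was 0.25 for 24 members and -0.10 for all genes, and 4 were enriched (16.7%, against 17.01%). In the bin above 53.7% it was 1.16 for 23 members and 0.60 for all genes, and 14 were enriched (60.9%, against 33.8%). The members' median was above that of all genes in each bin, while their share enriched was near that of all genes in the lower 2 bins. Their median GC content, 50.8%, was close to that of all genes, 50.5%. The part of base composition in the recovery of short fragments was not tested. Some members stood away from this relation. Chd2 and Kdm4c were enriched at a GC content of 47.9% and 43.7%, and Smarcb1 and Arid1b were lower at 55.2% and 59.1%.

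**Figure D4:**
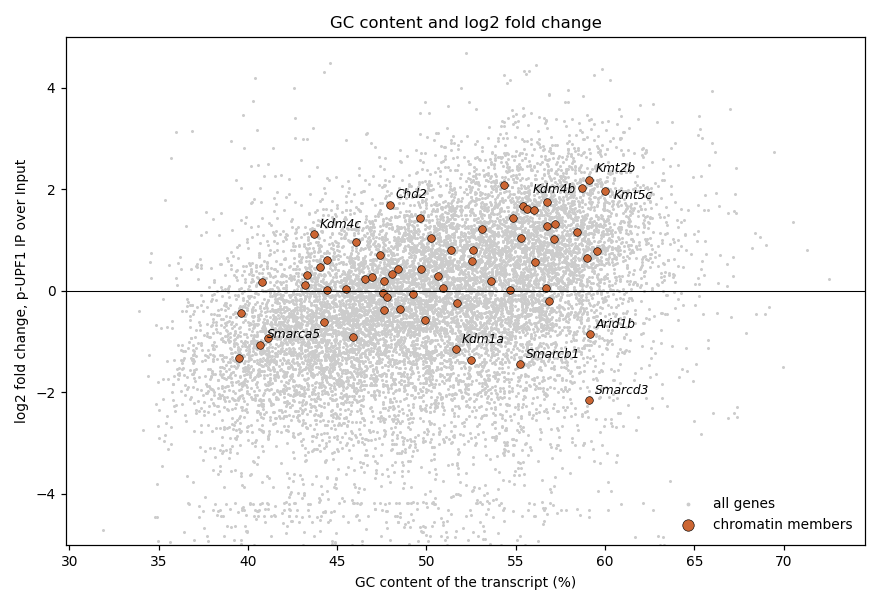
GC content of the most-counted coding transcript in percent (horizontal axis) and log2 fold change in the p-UPF1 IP over Input (vertical axis) of the members (orange) and all genes (grey). 236 genes lie outside the vertical range. Members above 53.7% GC mostly lie above 0, with Smarcb1, Arid1b, Smarcd2 and Smarcd3 below it.

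The members encode long mRNAs, with a median of 5894.5 nt against 2893.5 nt for all genes and a median coding length of 3858 against 1341 nt. Among the 50 members in the upper of 3 such bins by transcript length, over 3825 nt, the median log2 fold change was 0.38, against 0.04 for all genes of that bin. For the 10 members in the middle bin it was -0.09, against 0.04, and the lower bin held 4 members. Within the members, length and log2 fold change had a Spearman correlation of 0.03, against 0.21 across all genes, and for the length of the 3′ UTR it was 0.09 and 0.11. The longest model, Kmt2d at 19805 nt, and the second shortest, Setd6 at 1707 nt, were both enriched, and the shortest, Smarcb1 at 1660 nt, was depleted. By stop codon, the median was 0.66 for 18 members ending in TAA, 0.80 for 15 ending in TAG and 0.06 for 31 ending in TGA. Over all genes it was -0.57, -0.15 and -0.02, so the order differed between the members and all genes.

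Transcripts of a member did not always move as the gene did. Of the 350 member transcripts tested, 39 were enriched (11.1%, against 8.55% of 42616 transcripts) and 39 depleted (11.1%, against 16.2%). The enriched ones belonged to 31 genes, the depleted ones to 32, and 16 genes had both. Of the 19 genes enriched by summed counts, 15 had an enriched transcript. In 25 of 62 genes the transcript with the most counts differed between Input and p-UPF1 IP. The share over all genes is not given here. Libraries of the same group could also disagree. On average the leading transcript held 66.7% of p-UPF1 IP counts in Kdm4c (SD 57.7) and 56.8% in Chd5 (SD 50.1). In Kmt2d, ENSMUST00000178486.8 had 1324, 1103 and 1269 Input counts against 64, 55 and 49 in the p-UPF1 IP, while ENSMUST00000023741.15 had 0 in every Input library against 579, 684 and 729 in the p-UPF1 IP. The most-counted of the pair thus differed between the groups. But these 2 transcripts hold only 0.193% and 0.106% of 35-nt windows that the gene's other transcripts lack, and reads of this length can seldom tell them apart. In Chd9, whose summed count did not pass the test, ENSMUST00000109614.8 had 375, 513 and 474 Input counts and 0 in each p-UPF1 IP library, and ENSMUST00000048665.7 had 3, 4 and 6 against 68, 51 and 103. In Arid4b, ENSMUST00000039538.14 had 156, 184 and 204 against 0, and ENSMUST00000110534.7 had 45, 10 and 27 against 60, 64 and 72. Of the 39 enriched and 39 depleted transcripts, 18 and 20 had under 5% windows of their own, 10 of the enriched had no count in Input and 26 of the depleted had none in the p-UPF1 IP. A replicate block gave far fewer enriched and depleted transcripts, with the counts in the last section. Without Input library 1, 2 or 3 there were 22, 28 and 25 depleted transcripts. A change in the RNA and a change in how the estimates were split cannot be told apart for them.

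**Figure D5:**
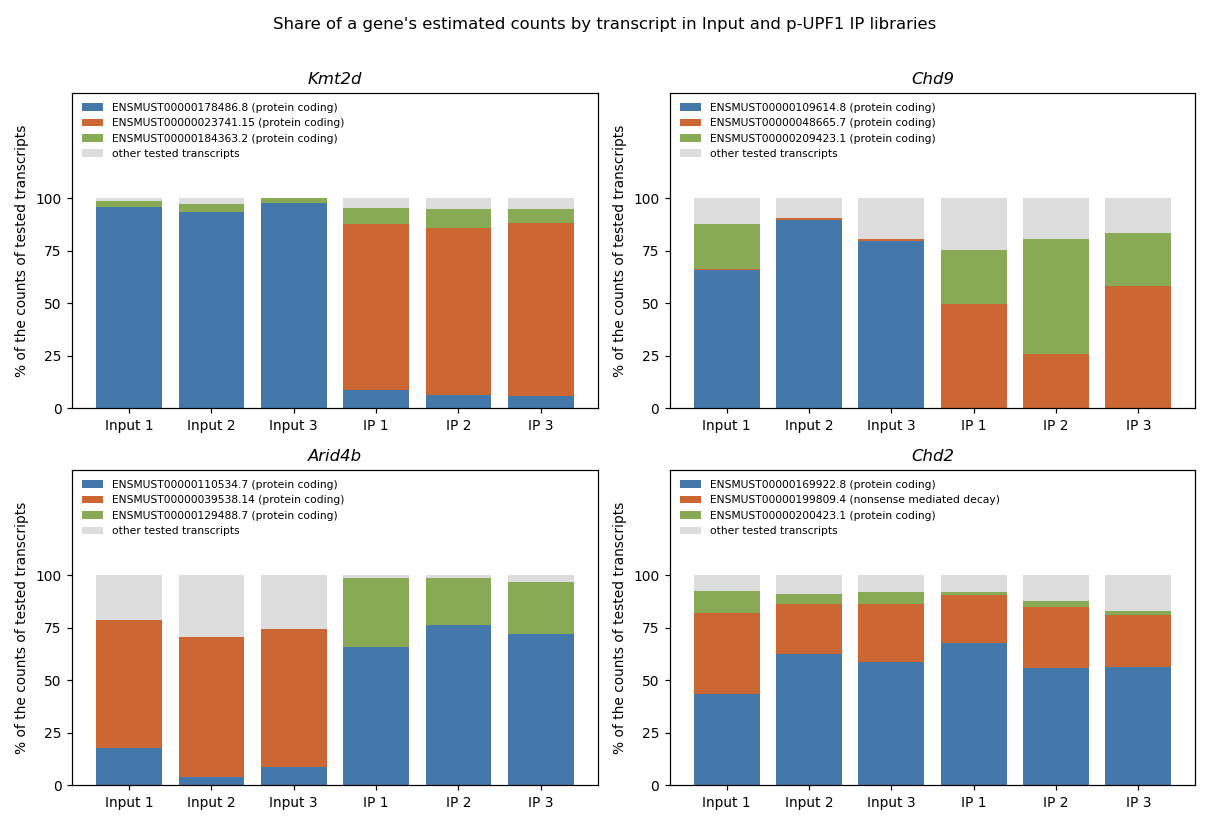
Share of the counts of a gene's tested transcripts (vertical axis, percent) held by its 3 leading transcripts in each Input and p-UPF1 IP library, for Kmt2d, Chd9, Arid4b and Chd2. The leading transcript differs between the groups in the first 3 genes and is the same in Chd2.

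Of 36 member transcripts annotated as NMD substrates and tested, 4 were enriched (11.1%, against 10.1% of the 3050 such transcripts of all genes) and 6 depleted (16.7%, against 12.9%), with a median log2 fold change of 0.27, against -0.31. The share enriched was near that of all such transcripts. Those enriched were transcripts of Chd2, Setd2, Arid5a and Kdm3b. In Chd2, ENSMUST00000199809.4, whose stop codon context is shown above, had 156, 85 and 113 Input counts against 72, 119 and 95 in the p-UPF1 IP, which at their lower depth gave a log2 fold change of 1.17 ± 0.27 (SE, edgeR adjusted p = 0.0278). The protein-coding ENSMUST00000169922.8 had 178, 226 and 243 against 215, 224 and 217 counts and a log2 fold change of 1.52 ± 0.15 (adjusted p = 0.00159). Both Chd2 transcripts were called enriched, 0.609% and 16.8% of their windows being unique to them in this order. Nearly all windows of the NMD-annotated one are shared, so its enrichment cannot be told apart from that of the gene's other transcripts. The difference between the Chd2 transcripts was not tested. In Kdm3b, ENSMUST00000225195.1 had 0 in every Input library against 114, 182 and 171 counts in the p-UPF1 IP, with 1.11% of windows of its own. In Setd2, a depleted NMD-annotated transcript, ENSMUST00000196814.4, had 266, 172 and 252 Input counts and 0 in the p-UPF1 IP libraries, and an enriched one, ENSMUST00000197655.1, had 0 against 19, 22 and 20.

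Partners of the members in the same complexes, and genes of related enzyme families, were read from 6 lists of 88 genes, 86 of them tested. Of these, 39 were higher (45.3%, against 26.3% of all genes) and 26 lower (30.2%, against 35.7%) in the p-UPF1 IP over Input, with a median log2 fold change of 0.18. Past a log2 fold change of 1 either way, 16 of the 86 were enriched and 13 depleted, against 17.2% and 26.5% of all genes. The share enriched was thus near that of all genes. The NuRD partners of the CHD3, CHD4 and CHD5 ATPases had 3 higher and 7 lower of 11 and a median of -0.54, while those 3 ATPases rose. Rbbp7, a histone chaperone subunit, measured 50.1, 51.5 and 53.8 CPM in Input against 11.5, 11.3 and 12.4 CPM in p-UPF1 IP (-2.14 ± 0.08 SE, adjusted p = 9.74e-09), and the deacetylase Hdac1 was at -1.15 ± 0.20 (adjusted p = 0.000523). Among other SWI/SNF subunits, 7 of 16 were higher and 3 lower (median 0.42). The neural subunits Dpf1 and Dpf3, of the BAF complexes of neurons and muscle, were at 2.07 ± 0.17 (adjusted p = 2.56e-06) and 2.40 ± 0.19 (adjusted p = 1.45e-06), and Bcl7a at 2.11 ± 0.16 (adjusted p = 1.37e-06). Cofactors of the H3K4 methyltransferases (COMPASS) had 6 higher and 4 lower of 12 (median 0.41), and Wdr5, the scaffold that these enzymes share, measured 11.6, 11.9 and 13.2 CPM in Input against 52.0, 48.3 and 46.2 CPM in p-UPF1 IP (2.00 ± 0.09 SE, adjusted p = 1.94e-08). The core subunit Rbbp5 was at 1.69 ± 0.09 (adjusted p = 1.16e-07) and Ash2l at -0.18 ± 0.11 (adjusted p = 0.189). Of 15 genes of the ISWI, INO80 and SRCAP families 7 were higher and 3 lower (median 0.14), of 23 other histone methyltransferases 12 and 7 (median 0.29), and of 9 other JmjC proteins 4 and 2 (median 0.20). Ezh2, Eed and Suz12, which form the core of Polycomb repressive complex 2, were at -0.49 ± 0.13 (adjusted p = 0.00797), -1.67 ± 0.19 (adjusted p = 2.21e-05) and -0.39 ± 0.13 (adjusted p = 0.0211), all lower, and the alternative subunit Ezh1 was higher at 0.79 ± 0.21 (adjusted p = 0.00796).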

How the data were processed

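The 9 libraries were grouped by their labels into Input, rIgG IP and p-UPF1 IP, 3 each. Per the labels and the methods of the study, the authors trimmed the reads, mapped them with STAR to GRCm38 and deposited estimated counts per transcript from Salmon 0.13.1, not scaled for library size and held as whole numbers. The rounding step is not given in the sources used here. From these, counts were summed per gene symbol. Each comparison used its own 6 libraries, TMM factors and the quasi-likelihood test of edgeR 4.0.16 (R 4.3.3), over genes that reached 10 counts in all. The study used DESeq2 on transcripts, which is here the alternative (DESeq2 1.42.0). The procedure was tested on simulated counts with 200 changed genes, called as enriched or depleted. It recovered 68% of them in the p-UPF1 IP over Input, 45.5% in the p-UPF1 IP over rIgG IP and 30.5% in the rIgG IP over Input. Of the calls, 7.48%, 4.21% and 12.9% were false, in this order. Coordinates, lengths and GC content are from GENCODE M21 (GRCm38), which holds 139921 of the 140658 transcripts. The authors used release M22.

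The members and lists were chosen with earlier results of these data known. Libraries of a group differed by more than sampling noise (chi-square over its degrees of freedom, 3.62 to 15.6), so none was treated as deposited more than once. Members named with values are, per role, those with the 2 highest, the 2 lowest and the most counted, those past a log2 fold change of 1 either way, and their paralogs. The rest, the partner and related genes and the transcripts named were picked after their values were seen. The alternatives were RLE factors, library totals, DESeq2, filterByExpr, dropping the filter, fitting the 9 libraries together, a replicate block, removing the 10 most-counted genes, and leaving out each library.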

Additional observations from a re-analysis of the deposited data

How the results depend on the processing

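In the p-UPF1 IP over Input, all 19 enriched members stayed higher in each of the 14 alternatives and 16 of them stayed enriched. Of the values of single named members in this comparison, 776 kept their direction and side of the threshold, 19 lost it, 8 gained it and 19 changed sign. Under library totals there were 8 lower and 2 depleted members and the members' median was 0.71. The median was 0.35 with filterByExpr and 0.22 without a filter. Leaving out each library gave 33 to 37 higher, 12 to 14 lower, 19 to 20 enriched and 4 to 6 depleted members, and medians of 0.32 to 0.37. In the p-UPF1 IP over rIgG IP, RLE factors gave 13 higher and 2 lower members, 12 enriched and 2 depleted, and a median of 0.64, DESeq2 gave 12, 3, 11, 3 and 0.62, and filterByExpr 12, 3, 10, 3 and 0.58. The median was 0.84 under library totals. Leaving out each library gave 15 to 24 higher, 0 to 1 lower, 14 to 22 enriched and 0 to 1 depleted, and medians of 0.75 to 1.28. In the rIgG IP over Input, DESeq2 gave 1 higher member, with a log2 fold change above 1, and leaving out each library gave 0 in every count and medians of -0.46 to -0.21. Leaving out each library gave 31 to 40 enriched and 22 to 42 depleted member transcripts. The causes of these shifts were not tested.

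The sign changes below are of the p-UPF1 IP against Input, where of these members only Nsd2 was called with TMM. Against rIgG IP, only members called there were recomputed, and none changed sign. Under library totals, Chd8 was at 0.35, Kmt2c at 0.37, Kmt5b at 0.30, Nsd2 at 0.031 and Smarcd2 at 0.21, and the first 3 were called higher. Without a filter, Arid1a was at -0.013, Arid3b at -0.057, Chd9 at -0.057, Kdm3a at -0.039 and Smarca2 at -0.016. Leaving out each library moved Arid3b between -0.17 and 0.28, Chd8 between -0.089 and 0.024, Chd9 between -0.0095 and 0.11, Kdm3a between -0.098 and 0.21, Kmt2c between -0.055 and 0.062, Nsd1 between -0.093 and 0.65 and Smarca2 between -0.064 and 0.22.

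The labels do not say whether same-numbered libraries belong together. Their deviations from the group means correlated at -0.030 to 0.051, which gives no sign of pairing but cannot exclude it. With the replicate block, the p-UPF1 IP over Input gave 35 higher and 13 lower members, the p-UPF1 IP over rIgG IP 14 higher, all 14 enriched, and 0 lower or depleted, and the transcripts 13 enriched and 8 depleted. The depth of the rIgG IP libraries limits every comparison with them.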
